A study of Mus musculus with 6 samples.

Results

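The genes described here encode the cGAS-STING pathway and other factors that sense or limit DNA in the cytosol. They were chosen by name: Tbk1, Ikbke, Irf3, Trex1, Samhd1, Ifi203, Ifi204 and Zdhhc1, with cGAS and STING, which the table lists under their older symbols Mb21d1 and Tmem173. Of these 10 genes, 9 had a row among the 23449 genes of the table, and the expression of Trex1 was not analysed here. All 9 passed the filter on low counts that left 13698 genes for testing.

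Messenger RNA was measured in 6 cultured mammary cell lines from female FVB/N mice, 3 lines labelled 16IC (genotype 16IC/WT) and 3 labelled EIC (genotype EIC/WT). The medium of every line held doxycycline at 10 ug/mL, along with serum, EGF, insulin and pituitary extract, so no line without the drug was compared. What the study is known for, rather than its labels, gives the transgenes: doxycycline induces the HER2Δ16 splice form of the receptor tyrosine kinase HER2 in 16IC and full-length HER2 in EIC. The 16IC lines are titled 16IC_1984, 16IC_4982 and 16IC_7391 and are called 16IC 1 to 3 here, and the EIC lines are titled EIC_4026, EIC_NT and EIC_7559 and are called EIC 1 to 3; values per line are listed in that order. The labels do not say whether a line is a clone, which promoter drives the transgenes, or whether 2 lines share an animal, so the p-values measure the spread between these samples. In bulk RNA, fewer cells with a transcript and less transcript per cell cannot be told apart.

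When DNA appears in the cytosol, cGAS binds it and makes the cyclic dinucleotide cGAMP. cGAMP binds STING on the endoplasmic reticulum, STING travels to the Golgi, and the kinases TBK1 and IKKε are activated there and phosphorylate the transcription factor IRF3, which turns on interferon and chemokine genes. In mouse the IFI200 proteins, a family coded by a gene cluster on chromosome 1, bind DNA or modulate this response, and TREX1 and SAMHD1 limit the nucleic acids and nucleotides available. ENPP1, the enzyme in the title of the series, breaks down cGAMP outside the cell.

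Total counts were 15621563 to 16091846 in the 16IC lines and 16742109 to 17468498 in the EIC lines. The line 16IC 3 stood apart from the other 16IC lines: across tested genes its Spearman correlation of log2 CPM was 0.874 with 16IC 1 and 0.880 with 16IC 2, against 0.989 between those 2 lines and 0.871 to 0.885 with the EIC lines. Within EIC the line EIC 2 also stood apart, with 0.925 and 0.917 to EIC 1 and EIC 3, against 0.979 between those. Epithelial markers differed between groups and lines. Summed over the 12 epithelial markers on the list, 16IC 3 held 1838 CPM, where 16IC 1 and 16IC 2 held 12276 and 12285 CPM and the EIC lines 2625 to 3741 CPM. Of the 10 tested, 9 had a positive log2 fold change and 8 an unadjusted p under 0.05, beside 49.7% and 22.7% of all tested genes. The groups did not overlap in 4 that were higher in 16IC and 1 that was lower, beside 17.2% and 14.2% of all tested genes. The 1 lower was the keratin gene Krt19, with a log2 fold change of -13.2 without 16IC 3 (edgeR adjusted p = 0.0941). EdgeR called 0, limma-voom 0 and DESeq2 6, beside 2.45%, 2.1% and 12.4% of all genes. Epcam, an epithelial adhesion gene, had 1160, 1345 and 51.1 CPM across the 16IC lines, against 0.456, 1.08 and 3.79 CPM across the EIC lines, and the tight junction gene Cldn7 had 356, 393 and 2.85 CPM, against 0, 0 and 0.560 CPM. Both were apart between groups, with 16IC 3 nearer to EIC, whereas the keratins Krt8 and Krt18 were at 563 CPM or more in every line and overlapped. Of 18 leukocyte markers 10 had a row; the pan-leukocyte gene Ptprc reached at most 0.306 CPM in a 16IC line and 0.0602 CPM in an EIC line, and Lyz2 at most 0.0649 and 0.114 CPM. The 10 summed to 89.5 to 375 CPM in 16IC and 105 to 307 CPM in EIC, nearly all of it Cd14, Cd68 and S100a8. S100a8, also made by some epithelia, was apart at 1.20, 2.88 and 2.40 CPM across the 16IC lines, against 29.8, 5.59 and 182 CPM across the EIC lines (edgeR adjusted p = 0.0963, DESeq2 adjusted p = 2.66e-05). Csf1r went the other way, at 3.73, 4.65 and 0 CPM across the 16IC lines, against 0, 0.241 and 0 CPM across the EIC lines, and did not pass the filter. Cd14 and Cd68 overlapped between groups, with log2 fold changes of 0.58 and -1.14. Fibroblast markers, 7 of 10 with a row, summed to 11.4 to 36.1 CPM in 16IC and 12.2 to 106 CPM in EIC, and endothelial markers, 5 of 8, to at most 1.36 and 4.16 CPM. Of 5 fibroblast markers tested, 3 had a positive and 2 a negative log2 fold change, and edgeR called 0. Col1a1 and Postn were apart and higher in 16IC, averaging 4.30 and 4.78 CPM, against 1.20 and 0.573 CPM in EIC. Pdgfra overlapped, with 87.8, 1.98 and 100 CPM across the EIC lines and at most 15.4 CPM in a 16IC line. The part of these marker levels in the results below was not tested.

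Of the 9 genes, edgeR's quasi-likelihood test called 1 higher in 16IC, the kinase gene Ikbke, and 1 lower, the IFI200 gene Ifi203. Over all tested genes the same rule called 335, or 2.45%, with 1.25% higher in 16IC and 1.2% lower. Limma-voom called the same number of the 9, beside 2.1% of all tested genes. The groups did not overlap in 4 of the 9 (Ikbke and Irf3 higher, Ifi203 and Ifi204 lower), where 31.4% of all tested genes had groups that did not overlap, 17.2% higher and 14.2% lower in 16IC. The genes of the central relay, cGAS, STING and Tbk1, had overlapping groups. The median log2 fold change of the 9 was 0.24, against -0.004 over all tested genes, and 6 of the 9 had a positive value beside 49.7% of all tested genes. Without 16IC 3 edgeR called the same 2 genes, in a fit that called 13.4% of all tested genes. Without any one of the other 5 lines edgeR called none of the 9, beside 0% to 1.96% of all tested genes. In those fits 3 or 4 of the 9 had an unadjusted p under 0.05.

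**Figure D1:**
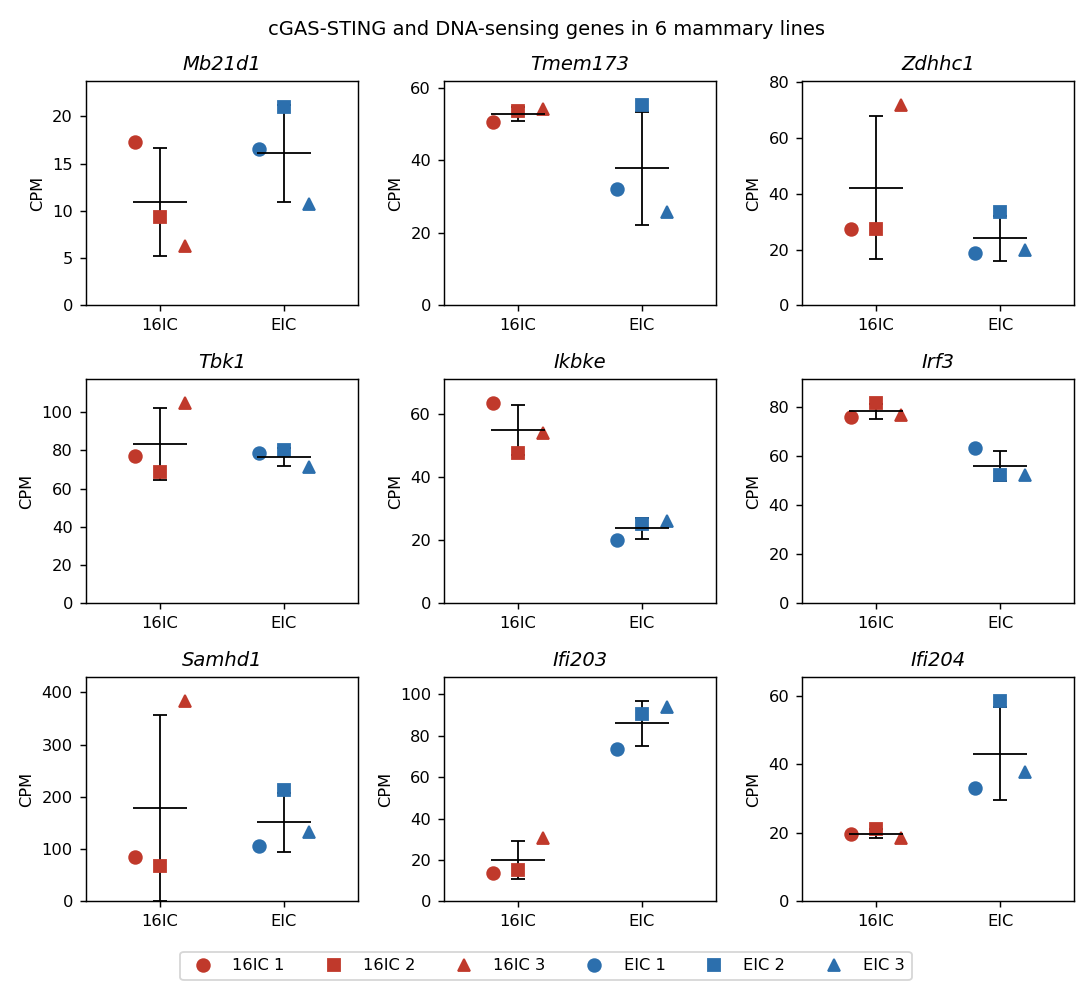
Level of each of the 9 genes (CPM, linear axis from 0) in the 16IC lines (red, left) and the EIC lines (blue, right), with 1 symbol per line and the group mean ± SD in black. Ikbke and Irf3 are higher in all 3 16IC lines and Ifi203 and Ifi204 lower in all 3, while Samhd1 and Zdhhc1 are set apart by 16IC 3 (383.7 and 71.8 CPM).

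The sensor at the head of the relay had, per gene length, the lowest mean level of the 9 genes in 16IC. Mb21d1 (cGAS, ENSMUSG00000032344, chr9:78430526-78443237 on mm10, minus strand), the enzyme that makes cGAMP, had 17.3, 9.30 and 6.29 CPM across the 16IC lines, against 16.5, 20.9 and 10.8 CPM across the EIC lines. CPM is the count scaled to a common library size after TMM normalisation. The groups overlapped, since 16IC 1 lay above EIC 1 and EIC 3, and 16IC 3 was the lowest of all 6. The log2 fold change of 16IC over EIC was -0.55 (95% interval -1.66 to 0.56, edgeR adjusted p = 0.529), or -0.28 once 16IC 3 was left out (edgeR adjusted p = 0.706). The interval spans 0 and also a fall larger than the fitted one.

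STING itself was uniform in 16IC and variable in EIC. Tmem173 (STING, ENSMUSG00000024349, chromosome 18, 35733678 to 35740554, minus strand), the cGAMP receptor, had 50.5, 53.5 and 54.1 CPM across the 16IC lines, against 32.2, 55.2 and 25.9 CPM across the EIC lines. EIC 2 was above every 16IC line, and EIC 1 and EIC 3 were below every one. The log2 fold change was 0.48 (95% interval -0.26 to 1.22, edgeR adjusted p = 0.404), 0.46 without 16IC 3 (edgeR adjusted p = 0.435) and 0.85 without EIC 2 (edgeR adjusted p = 0.0900). The ratio of STING to cGAS transcript, both as the authors' FPKM, which allows for gene length, was 5.24, 10.3 and 15.4 across the 16IC lines, against 3.49, 4.73 and 4.31 across the EIC lines. Every 16IC line thus had a higher ratio than every EIC line, and 16IC 1 lay closest to EIC.

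Neither Zdhhc1 nor Samhd1 passed the test, and in both the line 16IC 3 lay far above the other 16IC lines. Zdhhc1 (ENSMUSG00000039199, chr8:105472423-105496902, minus strand), a palmitoyltransferase of the DHHC family that binds STING, had 27.4, 27.3 and 71.8 CPM across the 16IC lines, against 18.9, 33.4 and 19.7 CPM across the EIC lines. Only 16IC 3 lay above EIC 2. Its log2 fold change was 0.81 (95% interval -0.33 to 1.96, edgeR adjusted p = 0.361) and 0.19 without 16IC 3 (edgeR adjusted p = 0.736). Samhd1 (ENSMUSG00000027639, chr2:157097533-157135265, minus strand), which hydrolyses deoxynucleotide triphosphates and so limits DNA synthesis, had 84.8, 67.8 and 383.7 CPM across the 16IC lines, against 106, 214 and 134 CPM across the EIC lines. 16IC 1 and 16IC 2 were below every EIC line and 16IC 3 above every one, a range of 5.66-fold within 16IC. The log2 fold change was 0.24 with all lines (95% interval -1.47 to 1.95, edgeR adjusted p = 0.871) and -0.99 without 16IC 3 (edgeR adjusted p = 0.121). Limma-voom gave -0.15 with all lines, so its direction depended on the tool as well as on that line.

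Of the kinase genes Ikbke rose in 16IC and Tbk1 did not pass the test; the difference between them was not tested. Tbk1 (ENSMUSG00000020115, chr10:121546455-121586787, minus strand), the kinase that STING recruits, had 77.0, 68.7 and 104.8 CPM across the 16IC lines, against 78.5, 80.1 and 71.3 CPM across the EIC lines. Apart from 16IC 3 the lines lay close together, with overlapping groups. Its log2 fold change was 0.12 (95% interval -0.37 to 0.62, edgeR adjusted p = 0.760), the narrowest interval among the 5 genes whose groups overlapped, and without 16IC 3 it was -0.08 (edgeR adjusted p = 0.777). Ikbke (ENSMUSG00000042349, chr1:131254343-131279606, minus strand) encodes IKKε, the relative of TBK1 that can also phosphorylate IRF3 and is a known breast cancer oncogene in human. It had 63.5, 47.7 and 53.97 CPM across the 16IC lines, against 20.1, 25.1 and 26.0 CPM across the EIC lines. The lowest 16IC line stood well above the highest EIC line. Ikbke was 2.32-fold higher in 16IC (log2 fold change 1.21, SE 0.21, 95% interval 0.71 to 1.71, edgeR adjusted p = 0.0461). Leaving out 16IC 3 gave 1.22 on the log2 scale (edgeR adjusted p = 0.0267), in a fit that called 13.4% of all tested genes. Without any one of the other 5 lines its log2 fold change ran from 1.10 to 1.30 and Ikbke was not called (edgeR adjusted p = 0.0698 to 0.185). The authors' deposited comparison lists Ikbke at 1.18 on the log2 scale (adjusted p 0.000649). These are nearly the values DESeq2 gave here, and DESeq2 called 12.4% of the genes for which it gave an adjusted p. Antisense models Gm28913 and Gm28914 overlap Ikbke with 43 and 14 counts over the 16IC lines and 21 and 6 over the EIC lines, and the sources used here do not say whether counting used strand.

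Per gene length Tbk1 stayed the more abundant kinase in every line. The ratio of Ikbke to Tbk1 FPKM was 0.358, 0.301 and 0.223 across the 16IC lines, against 0.111, 0.136 and 0.159 across the EIC lines. The lowest 16IC ratio, in 16IC 3 with its higher Tbk1, was above the highest EIC ratio.

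Irf3 had groups that did not overlap but missed the threshold. Irf3 (ENSMUSG00000003184, chr7:44997648-45002848, plus strand), the transcription factor at the end of the relay, had 76.1, 81.6 and 76.9 CPM across the 16IC lines, against 63.1, 52.3 and 52.3 CPM across the EIC lines. All 16IC lines were above all EIC lines and the lines of a group lay close together. Its log2 fold change was 0.48 (SE 0.16, 95% interval 0.10 to 0.86), which edgeR did not call (adjusted p = 0.142). Without 16IC 3 it was 0.49 (edgeR adjusted p = 0.105). The opposite-strand gene Bcl2l12 overlaps Irf3 over 1065 bases and had 508 counts over the 16IC lines and 361 over the EIC lines. Reads in that stretch cannot be told apart if strand was not used.

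**Figure D2:**
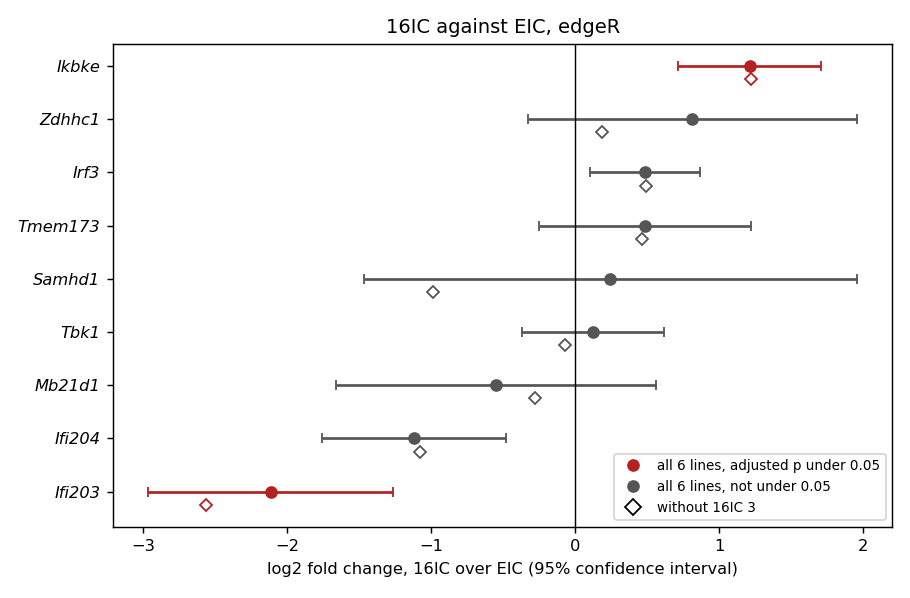
Fitted log2 fold change of 16IC over EIC for the 9 genes with 95% confidence intervals (filled circles) and the value without 16IC 3 (open diamonds). The red genes, Ikbke at 1.21 and Ifi203 at -2.11, are those edgeR called; Samhd1 and Tbk1 move across 0 when 16IC 3 is left out.

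Of the IFI200 genes, Ifi203 fell in 16IC and Ifi204 did not pass the test. Ifi203 (ENSMUSG00000039997, chr1:173920407-173942672, minus strand), an interferon-inducible nuclear protein gene of the family, had 13.9, 15.2 and 30.5 CPM across the 16IC lines, against 73.7, 90.6 and 93.7 CPM across the EIC lines. 16IC 3 had the highest 16IC value and was still far below EIC 1, the lowest EIC line. Ifi203 was 4.33-fold lower in 16IC (log2 fold change -2.11, SE 0.35, 95% interval -2.97 to -1.26, edgeR adjusted p = 0.0455). Leaving out 16IC 3 gave -2.57 on the log2 scale (edgeR adjusted p = 0.00556), in a fit that called 13.4% of all tested genes. Without any one of the other 5 lines its log2 fold change ran from -2.22 to -1.91 and Ifi203 was not called (edgeR adjusted p = 0.0730 to 0.174). The authors' deposited comparison gives -2.15 with an adjusted p of 1.11e-05. These are nearly the values DESeq2 gave here, and DESeq2 called 12.4% of the genes for which it gave an adjusted p. The Ifi203 model overlaps the same-strand family gene Mndal over 22085 bases and has a pseudogene, Ifi203-ps, at 1.67 ± 0.900 CPM in 16IC, against 3.48 ± 0.539 CPM in EIC (SD, n = 3), so reads that match more than 1 copy are a source of uncertainty in its count.

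Ifi204 (ENSMUSG00000073489, chr1:173747293-173766943, minus strand), a mouse DNA sensor that acts with STING and is regarded as the counterpart of human IFI16, had 19.8, 21.0 and 18.6 CPM across the 16IC lines, against 33.1, 58.5 and 37.7 CPM across the EIC lines. The 16IC lines were nearly equal, 16IC 3 included, and all were below all EIC lines, of which EIC 2 was the highest. Its log2 fold change was -1.12 (SE 0.26, 95% interval -1.76 to -0.48), which edgeR did not call (adjusted p = 0.0815), nor without 16IC 3 (log2 fold change -1.08, edgeR adjusted p = 0.0742). DESeq2 called it (adjusted p = 0.00996). The authors' deposited values (log2 fold change -1.15, adjusted p = 0.00998) are nearly those of DESeq2 here, so they are not a separate result. DESeq2 called 12.4% of the genes for which it gave an adjusted p, so its calls are read against a higher background. Per gene length, the ratio of Ifi203 to Ifi204 FPKM was 0.371, 0.384 and 0.870 across the 16IC lines, against 1.18, 0.822 and 1.32 across the EIC lines. It was under 1 in every 16IC line and in EIC 2, which lay below 16IC 3.

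The rest of the family, taken from a list of 14 names of which 11 had a row, showed the same direction. The log2 fold change was negative in all 9 tested family genes, Ifi203 and Ifi204 among them, beside 50.3% of all tested genes, with a median of -1.39. In 7 of the 9 all 16IC lines were below all EIC lines, where 14.2% of all tested genes had groups apart in that direction. EdgeR called Ifi203 alone, 0 higher and 1 lower, beside 1.25% and 1.2% of all tested genes. Ifi202b, another interferon-inducible member, had 42.2, 39.0 and 68.7 CPM across the 16IC lines, against 103, 143 and 132 CPM across the EIC lines (log2 fold change -1.33, edgeR adjusted p = 0.0646). Aim2, which starts an inflammasome on cytosolic DNA, had 0.301, 0.979 and 1.30 CPM across the 16IC lines, against 7.07, 4.03 and 7.27 CPM across the EIC lines (log2 fold change -2.83, edgeR adjusted p = 0.0701). Ifi207, Ifi211 and Mndal were apart as well, at 2.06, 2.94 and 1.71 CPM on average in 16IC and 9.34, 7.05 and 4.49 CPM in EIC (edgeR adjusted p = 0.202, 0.116 and 0.136). Ifi205 and Ifi209 overlapped between groups, and their highest line was EIC 2. Among the genes with groups apart, 16IC 3 was the highest 16IC line, and so the nearest to EIC, in Ifi203, Ifi202b, Aim2, Ifi207 and Mndal. It was not in Ifi204 or Ifi211. In Ifi205 and Ifi209 16IC 3 was also the highest 16IC line, but it lay above EIC 1 and EIC 3. Without 16IC 3 edgeR called 5 of the 9, all lower: Aim2, Ifi202b, Ifi203, Ifi207 and Mndal. In that fit 13.4% of all tested genes were called. These genes are near copies of each other in 1 cluster, so reads may be split or shared between them and their counts are not independent.

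**Figure D3:**
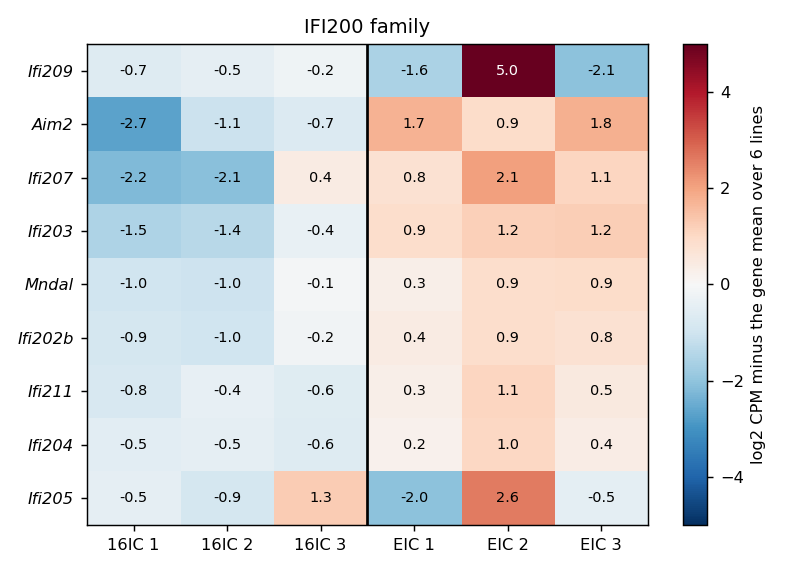
Log2 CPM of the 9 tested IFI200 genes in each line after subtracting the gene's mean over the 6 lines (red above, blue below; 16IC lines left of the black bar, EIC lines right). Every gene but Ifi205 and Ifi209 is lower in each 16IC line than in each EIC line, and Ifi209 stands out in EIC 2 alone.

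Promoter sequence was looked at for these genes because their log2 fold changes had the same sign and the family is known to be induced by interferon. RefSeq windows on GRCm38.p6 covering the 250 bases before each annotated start were searched on both strands for an interferon-response type motif, GAAA followed by any 2 bases and GAAA again. The motif was in 2.98% of the 32851 windows of that length, and in a window of 3.46% of the 27025 genes. Of the 10 genes described here 8 were searched, since STING was left out of the search and Ifi204 had no window. Of these 8 only Ifi203 had a match, in 1 of its 2 windows. The window without a match, chr1:173942673-173942922, is the one directly before the Ifi203 model whose counts are given above. The match in the other window lies inside that model. Ikbke, Irf3, Tbk1, Samhd1, Zdhhc1, cGAS and Trex1 had none of this motif, which says only that these letters are not in those windows. In the family list 12 genes had a window and 9 had a match; as near copies they are not independent of each other. The Ifi203 window, chr1:173942493-173942742 on the minus strand, is shown because Ifi203 had the largest fitted difference of the 9 genes; capitals mark the match, which begins 35 bases before the start:
Ifi203: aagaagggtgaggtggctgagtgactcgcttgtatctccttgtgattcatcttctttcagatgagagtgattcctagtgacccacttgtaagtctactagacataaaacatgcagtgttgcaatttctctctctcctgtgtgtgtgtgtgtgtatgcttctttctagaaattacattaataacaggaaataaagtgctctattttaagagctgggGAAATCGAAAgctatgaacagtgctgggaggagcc
For comparison, the Ikbke window, chr1:131279564-131279813 on the minus strand, holds no match and is shown as the promoter of the gene that was called higher:
Ikbke: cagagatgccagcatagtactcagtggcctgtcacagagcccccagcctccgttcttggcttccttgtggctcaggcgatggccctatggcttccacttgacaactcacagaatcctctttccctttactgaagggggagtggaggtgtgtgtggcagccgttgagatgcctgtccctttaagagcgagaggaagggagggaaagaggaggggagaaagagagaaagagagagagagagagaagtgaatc
The 40 bases around the match in the tested family genes are printed to show how alike the copies are, with the match in capitals. They lie at chr1:173942503-173942542 (Ifi203), chr1:173880199-173880238 (Mndal), chr1:173741826-173741865 (Ifi207), chr1:173913059-173913098 (Ifi211) and chr1:174031865-174031904 (Ifi205), all on the minus strand:
Ifi203: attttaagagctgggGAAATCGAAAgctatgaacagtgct
Mndal: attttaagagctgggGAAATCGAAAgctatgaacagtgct
Ifi207: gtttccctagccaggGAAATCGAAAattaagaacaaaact
Ifi211: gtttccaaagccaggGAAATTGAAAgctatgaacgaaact
Ifi205: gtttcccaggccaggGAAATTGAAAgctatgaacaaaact
The Ifi203 and Mndal stretches are identical. The letters GAAATCGAAA were the match in 7 family genes and GAAATTGAAA in 2. Ifi202b and Aim2, which also had groups apart, had no match in their windows, and Ifi205, whose groups overlapped, had one. A second motif, TTC followed by any 3 bases and GAA, the type bound by STAT dimers, was in 7.02% of all windows and 8.13% of genes. It had a match in Samhd1, Zdhhc1 and Ifi202b and in no other searched window of these genes or the family, STING and Ifi204 not being among those searched.

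The order of levels was read from the deposited FPKM, which divides by gene length. In 16IC the order by mean was Tmem173, Irf3, Tbk1, Samhd1, Zdhhc1, Ikbke, Ifi204, Ifi203 and Mb21d1, running from 22.5 ± 0.941 to 2.61 ± 1.34 FPKM (SD, n = 3). The only neighbours whose lines did not overlap were Ifi204 at 5.47 ± 0.267 FPKM and Ifi203 at 2.92 ± 1.40 FPKM. In EIC the order was Tbk1, Samhd1, Tmem173, Irf3, Ifi203, Ifi204, Zdhhc1, Mb21d1 and Ikbke, running from 19.0 ± 0.745 to 2.56 ± 0.360 FPKM. There Irf3 did not overlap with Ifi203 below it, nor Ifi204 with Zdhhc1. Ikbke was thus the sixth in 16IC at 6.003 ± 0.890 FPKM and the lowest of the 9 in EIC at 2.56 ± 0.360 FPKM, while Ifi203 was the eighth in 16IC and the fifth in EIC.

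**Figure D4:**
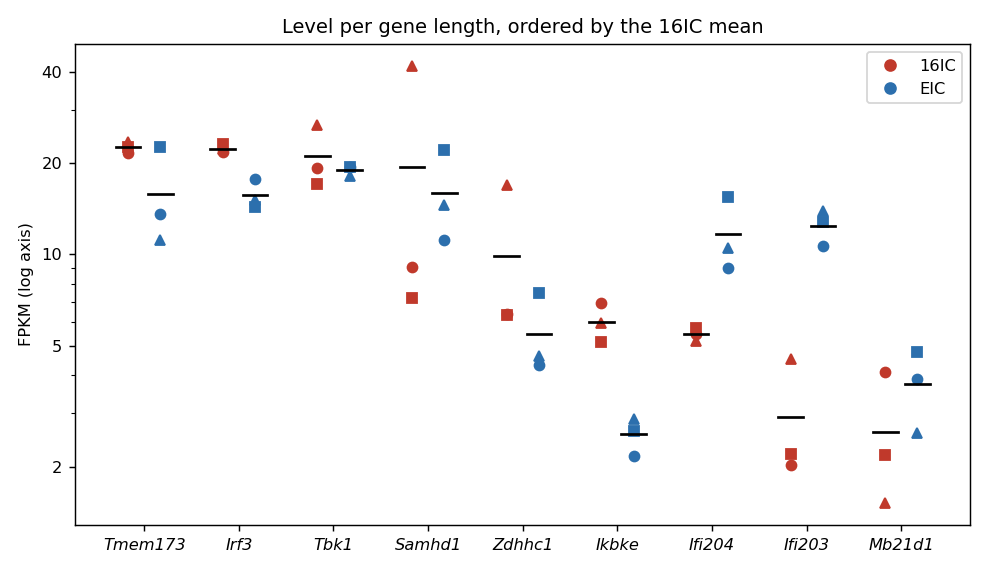
Deposited FPKM of the 9 genes on a log axis, 16IC in red on the left of each pair and EIC in blue on the right, with 1 symbol per line (circle, square and triangle for lines 1, 2 and 3) and a black bar at the group mean. Tmem173, Irf3 and Tbk1 form the upper end in 16IC (22.5, 22.3 and 21.0 FPKM), and Ikbke the lower end in EIC (2.56 FPKM).

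The genes whose pattern over the 6 lines was most like cGAS and STING were found by Pearson correlation of log2 CPM among all tested genes, as a description only. For Mb21d1 they were Cep192 (r = 0.995), Cenpw (r = 0.988) and Psmg2 (r = 0.987). For Tmem173 they were Fes (r = 0.998), Nr2c2ap (r = 0.996) and Sh3d21 (r = 0.995). The correlations are over 6 lines, which share the group difference, and carry no test.

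Around the 9 genes, 10 lists of pathway genes named 155 further genes, of which 138 were tested. EdgeR called 3 higher and 3 lower in 16IC, or 4.35% beside 2.45% of all tested genes, and the groups were apart in 38.4% beside 31.4%. The median log2 fold change of the 138 was -0.20. The 3 higher were Tnfaip3, Tlr3 and P2rx7, and the 3 lower were Sec24c, Sar1a and Ifit2. All 6 calls were lost without 16IC 1, 16IC 2, EIC 1 or EIC 3, where edgeR called 0 of these genes with 23 to 33 at an unadjusted p under 0.05.

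Of the genes that carry or modify STING, 28 were tested and edgeR called 0 higher and 2 lower, beside 1.25% and 1.2% of all tested genes. Both code for parts of the COPII coat that takes cargo, STING included, out of the endoplasmic reticulum. Sec24c, the cargo-binding subunit, had 90.1, 91.3 and 89.3 CPM across the 16IC lines, against 205, 201 and 212 CPM across the EIC lines. The lines of each group were almost equal, and the gene was 2.28-fold lower in 16IC (log2 fold change -1.19, SE 0.14, edgeR adjusted p = 0.0356). Sar1a, the GTPase that starts coat assembly, had 158, 162 and 164 CPM across the 16IC lines, against 330.5, 353 and 330.2 CPM across the EIC lines. It was 2.09-fold lower in 16IC (log2 fold change -1.06, SE 0.15, edgeR adjusted p = 0.0378), a call lost without EIC 2 as well (adjusted p = 0.0509). Tmed2, a cargo receptor of the same route, averaged 250.5 and 422 CPM in 16IC and EIC, and Nlrx1, a mitochondrial protein reported to restrain STING, 17.9 and 5.92 CPM, without passing the test (edgeR adjusted p = 0.0917 and 0.0899).

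Of 12 tested adaptors of TBK1 and IKKε, edgeR called 0 and so did DESeq2 and limma-voom, beside 2.45%, 12.4% and 2.1% of all genes. At an unadjusted edgeR p under 0.05 there were 2, beside 22.7% of all tested genes. They were Tank, with 66.5 ± 7.89 CPM in 16IC, against 43.9 ± 8.08 CPM in EIC, and Azi2, with 68.5 ± 1.99 and 92.1 ± 1.92 CPM (SD, n = 3). In the transcription arm edgeR called 1 of 18, beside 2.45% of all tested genes: Tnfaip3, which encodes the brake protein A20. It had 139, 108 and 88.2 CPM across the 16IC lines, against 32.2, 33.1 and 19.1 CPM across the EIC lines, and was 3.97-fold higher in 16IC (edgeR adjusted p = 0.0390, and 0.0580 without EIC 2). Ikbkb, the kinase of the canonical NF-κB route, averaged 108 and 63.4 CPM in 16IC and EIC without passing (edgeR adjusted p = 0.102).

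Of 19 other DNA sensors and cGAS cofactors edgeR called 0, limma-voom 0 and DESeq2 1, beside 2.45%, 2.1% and 12.4% of all genes. Polr3a alone had an unadjusted p under 0.05; it encodes a subunit of the RNA polymerase that can copy AT-rich DNA in the cytosol. It had 24.2, 24.2 and 23.2 CPM across the 16IC lines, against 47.7, 38.8 and 46.1 CPM across the EIC lines (edgeR adjusted p = 0.0594). Of 9 tested nucleases and nucleotide enzymes, Samhd1 included, all 3 tools called 0, against the same shares of all genes, and none had an unadjusted p under 0.05 in edgeR. DESeq2 called Trex2, which had not passed edgeR's filter. Of 7 interferon receptor and JAK genes the same 3 tools called 0, again with none under 0.05 unadjusted.

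Among 14 genes of cGAMP transport and hydrolysis edgeR called 1, beside 2.45% of all tested genes. It was P2rx7, the ATP-gated channel, higher in 16IC (46.2 ± 12.7 CPM, against 11.3 ± 1.13 CPM in EIC, SD, n = 3, edgeR adjusted p = 0.0360). Enpp1 had 38.9, 61.1 and 1.82 CPM across the 16IC lines, against 0.627, 0.0601 and 3.17 CPM across the EIC lines, so that 16IC 3 lay with the EIC lines. With all lines DESeq2 called Enpp1 (DESeq2 adjusted p = 0.00388), beside 12.4% of all genes. Neither edgeR (edgeR adjusted p = 0.157) nor limma-voom (limma-voom adjusted p = 0.323) called it with all lines. EdgeR called it without 16IC 3 (edgeR adjusted p = 0.0471), where 13.4% of all tested genes were called. The volume-regulated channel genes Lrrc8a to Lrrc8e, which can pass cGAMP, and the exporter gene Abcc1 were not called, though Lrrc8b and Lrrc8c were called higher in that fit. Slc46a3, on the same list, was called lower in it (log2 fold change -2.75, edgeR adjusted p = 0.0240). Of 15 RNA-sensing genes edgeR called 1, beside 2.45% of all tested genes: Tlr3, the endosomal receptor of double-stranded RNA. It had 156, 146 and 79.5 CPM across the 16IC lines, against 26.2, 31.6 and 27.1 CPM across the EIC lines and was 4.49-fold higher in 16IC (edgeR adjusted p = 0.0369, and 0.0559 without EIC 2). Of the 15 genes, 13 had a negative log2 fold change, beside 50.3% of all tested genes.

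The genes at the end of the route had lower fitted levels in 16IC where they could be tested. On the list of IRF3 and interferon output all 16 tested genes were on the negative side (median log2 fold change -1.64), beside 50.3% of all tested genes, and in 8 all 16IC lines were below all EIC lines, beside 14.2%. EdgeR called 1 lower in 16IC, beside 1.2% of all tested genes. It was Ifit2 (20.7, 16.8 and 23.8 CPM across the 16IC lines, against 54.9, 43.4 and 66.6 CPM across the EIC lines, edgeR adjusted p = 0.0467). That call was also lost with upper-quartile factors (edgeR adjusted p = 0.0512) or when low counts were not filtered (0.0536). Cxcl10, a chemokine that IRF3 induces, had 0.904, 0.490 and 0.843 CPM across the 16IC lines, against 3.59, 4.57 and 3.05 CPM across the EIC lines without passing the test (edgeR adjusted p = 0.0518). Ifnb1, the interferon gene that IRF3 switches on, was too low to test, with at most 0.120 CPM in a 16IC line and 0.746 CPM in an EIC line. The summed level of the list was 352, 241 and 1036 CPM across the 16IC lines, against 1378, 1144 and 2274 CPM across the EIC lines, so 16IC 3 lay nearer to EIC 2 than to the other 16IC lines. Without 16IC 3 edgeR called 11 of the 16, all lower, in a fit that called 13.4% of all tested genes. The summed epithelial markers given above also set 16IC 3 apart from the other 16IC lines, but as the lowest of all lines (1838 CPM). S100a8 did not: at 2.40 CPM 16IC 3 lay between the other 16IC lines and below every EIC line, and EIC 3 was the highest. The part of these markers was not tested.

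**Figure D5:**
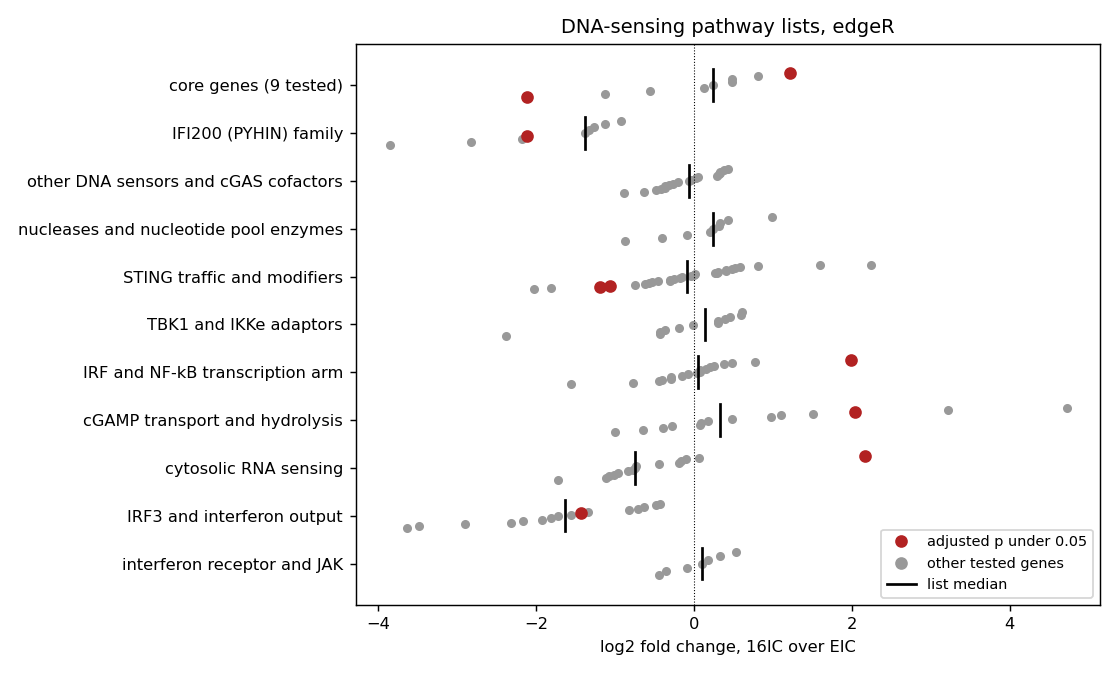
Fitted log2 fold change of 16IC over EIC for each tested gene of the 9 core genes and of the 10 pathway lists (1 row each, some genes in more than 1 list), with the list median as a black bar and genes called by edgeR in red. The IFI200 family and the IRF3 and interferon output genes lie wholly below 0 (medians -1.39 and -1.64), and the other lists lie on both sides of it.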

How the data were processed

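RNA-seq of 6 mouse mammary cell lines was used as 1 deposited table. The submitters' processing notes name STAR, HTSeq, Trimmomatic, limma and edgeR, on GRCm38 and mm10. Not given in the sources used here: roles, versions, strand setting and annotation. The table holds the authors' read counts per gene. It also holds a deposited normalised signal, which is each count divided by 1 size factor per library, and the authors' FPKM. The deposited comparison of the groups is a log2 fold change and a p-value, raw and adjusted.

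The counts were fitted over all genes passing edgeR's filterByExpr (minimum count 10), with TMM factors and edgeR's quasi-likelihood test of 16IC against EIC (edgeR 4.0.16, R 4.3.3), without covariates, since the labels give no batch or pairing. A gene was called at a Benjamini-Hochberg adjusted p under 0.05 over the 13698 tested genes. SE is the log2 fold change over the root of F, and intervals are 95%. The fit was also run on simulated counts with the same dispersion for every gene and no outlying line. That run cannot show how the calls depend on single lines. Alternatives were DESeq2 size factors, upper-quartile factors, no filter, DESeq2 1.42.0, limma-voom (limma 3.58.1), a robust fit, leaving out each line, and summing 16IC 1 with 16IC 2.

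The genes, lists and tests were chosen with earlier results of these data known. All 9 core genes were named, and from each other list every called gene, and up to 3 others by smallest p, could be named, with Enpp1 and the 3 genes most like cGAS and STING; other genes were named after their values were seen. Promoter sequences are from RefSeq, GRCm38.p6. They were matched by symbol for 8 of the 10 genes, with STING left out of the search and no window found for Ifi204. The labels mention no molecular identifiers.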

Additional observations from a re-analysis of the deposited data

How the results depend on the processing

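No paired analysis was possible because the labels give the 2 groups no shared replicate numbers. The counts called (335 of all tested genes, 2 of the 9 core genes and 6 of the pathway genes) depended on single lines: leaving out 1 line gave 0 to 1913, 0 to 2 and 0 to 34, with the highest values without 16IC 3 and 2248 to 4427 genes at an unadjusted p under 0.05. With 16IC 1 and 16IC 2 summed to 1 sample edgeR called 0, 0 and 0, with 2253, 3 and 25 at an unadjusted p under 0.05. No filter on low counts gave 223 genes and 1 core gene, Ikbke being lost (adjusted p = 0.0719), and DESeq2 gave 2032 genes, 3 core genes and 30 pathway genes. The direction turned for 2 core genes. The log2 fold change of Samhd1 was -0.15 in limma-voom and ran from -0.99 (without 16IC 3) to 0.63 with 1 line left out. That of Tbk1 ran from -0.075 (without 16IC 3) to 0.24. The cause was not tested. The other 7 kept their direction in all 13 alternatives. Of 117 repeats over the 9 core genes 100 kept direction and call, 13 lost a call, 1 gained one and 3 turned direction. Between the scalings the median log2 fold change of all genes lay between -0.01 and 0.05.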

Other observations

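Values outside the comparisons, chosen after they were seen, concern single lines. Ifi209, an IFI200 gene, had 1.87, 2.14 and 2.53 CPM across the 16IC lines (1, 2 and 3 in order), against 0.970, 93.2 and 0.684 CPM across the EIC lines, so EIC 2 was far above the other lines. The neighbouring Ifi214 had at most 0.195 CPM in a 16IC line and 0, 8.30 and 0.124 CPM across the EIC lines, and Ifi205 had 19.1 CPM in EIC 2 and at most 7.65 CPM elsewhere. Trex2, a relative of the DNA exonuclease gene Trex1, had 3.98, 5.87 and 0.259 CPM across the 16IC lines, against 0.228, 0.180 and 0.124 CPM across the EIC lines. Zbp1, a sensor of Z-form nucleic acids, had 15.7, 7.59 and 102 CPM across the 16IC lines, against 35.0, 134 and 25.2 CPM across the EIC lines, with its 2 highest values in 16IC 3 and EIC 2. Those 2 lines also had the highest Samhd1, Zdhhc1 and Cd14 of the 6.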
